A study of Homo sapiens with 12 samples.

Results

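The early response to methotrexate was described by comparing HT29 cells after 8 h with 70 nM of the drug against untreated cells of the same line. HT29 is an established human colon adenocarcinoma line, grown here in F12 medium with serum, and the design text calls it sensitive to methotrexate. The comparison used the 3 arrays titled as 8 h and the 3 titled as control, 6 of the 12 arrays of the series. The other 6 arrays, after 24 and 48 h with the same dose, entered the estimate of spread and the description of what followed. The control group was taken as 0 h, and no untreated array at 8 h was used here, so treatment and time in culture cannot be told apart. All groups are 1 cell line, and the titles call the replicates biological without saying whether they came from separate cultures, so the p-values measure the spread between these samples.

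Methotrexate is an antifolate. It inhibits dihydrofolate reductase and so limits the reduced folates that cells need to make thymidylate and purines. Cells short of nucleotides slow or stall in S phase, and purine supply is one of the inputs to mTORC1, the kinase complex that sets ribosome production, translation and autophagy. In RNA from whole cultures, fewer cells of a kind and less RNA per cell cannot be told apart.

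Values are given as log2 ratios, scaled to the control median, so 0 is the control level, 1 is a 2-fold rise and -1 a 2-fold fall. Levels before that centring are lost, so the signal of a gene over background is unknown. The labelled cell type could therefore not be checked by level. Change from control cannot check it either, because an absent marker and a steady one both stay near the control level. None of 14 fibroblast markers and none of 14 leukocyte and endothelial markers differed at 8 h by limma at an adjusted p under 0.05, with medians of 0.02 and 0.02. With array weights 2 of the latter passed, CSF1R (0.14, adjusted p = 0.02) and VWF (-0.13, adjusted p = 0.0299). Of 15 epithelial markers, the carcinoembryonic antigen genes CEACAM6 (0.70, SE 0.08) and CEACAM5 (0.50, SE 0.07) and the keratin KRT19 rose. The galectin LGALS4 (-0.64, SE 0.06) and the epithelial transcription factor ELF3 fell. The KRT19 call, at 0.26, was lost without any 1 of the 6 arrays (adjusted p 0.0531 to 0.0749), and with quantile normalization (0.139), which also ended the CEACAM6 call (0.357). Replicate arrays differed by a root mean square over genes of 0.0997 to 0.138 among controls and 0.094 to 0.138 at 8 h. Any control and any 8 h array differed by 0.25 to 0.273.

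Of 18377 genes tested, 2225 were higher at 8 h (12.1%) and 2214 lower (12%), together 24.2%. Most of these changes were small, with a median size of 0.326 on the log2 scale, against a median SE of 0.07. At least a 2-fold change was reached by 21 rises and 107 falls. The 3 values at 8 h all lay on one side of the 3 control values in 37.9% of genes. The median change over all genes was 0.02, and the 5th and 95th percentiles were -0.39 and 0.35.

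Interferon-stimulated genes, the integrated stress response, genes of DNA replication and G1/S, and replication-dependent histones were set apart, because their large changes are already well described. These 4 lists hold 331 measured genes, with 84 higher and 176 lower. IFI44L, an interferon-induced gene, was 0.00, 0.28 and -0.03 on the control arrays and -2.98, -3.39 and -3.39 at 8 h. ORC1, the large subunit of the origin recognition complex, was 0.02, 0.00 and -0.06 in control and 1.13, 1.15 and 1.11 at 8 h. Outside those lists 2141 genes were higher and 2038 lower of 18046, so they hold most of the calls. Of the at least 2-fold changes, 17 rises and 48 falls were outside them.

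**Figure D1:**
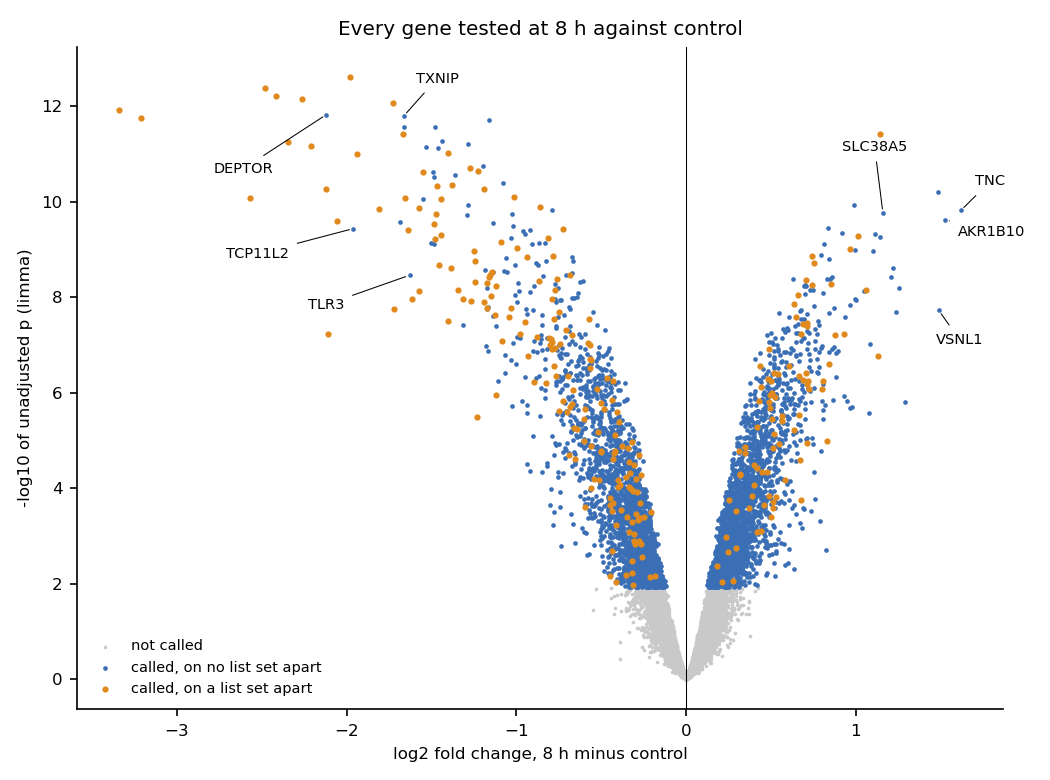
Each point is one of the 18377 genes; the horizontal axis is the log2 fold change, 8 h minus control, and the vertical axis is minus log10 of limma's unadjusted p. Genes of the 4 lists set apart (orange) lie mostly on the left, while called genes of no such list (blue) spread on both sides, from DEPTOR at -2.12 to TNC at 1.62.

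The largest rise outside the lists set apart was TNC, tenascin-C, a glycoprotein of the extracellular matrix. It was 0.04, 0.00 and -0.16 on the control arrays and 1.77, 1.52 and 1.45 at 8 h, a 3.07-fold rise (1.62, SE 0.09, adjusted p = 5.94e-08). The largest rises and falls were taken only from genes whose treated and control values do not overlap. That separation is therefore part of the choice. SLC38A5, a transporter of glutamine, serine and other neutral amino acids, was 0.09, 0.00 and -0.09 in control and 1.19, 1.23 and 1.06 at 8 h (1.16, SE 0.06, adjusted p = 6.58e-08). The aldo-keto reductases AKR1B10 (1.53) and AKR1C2 (1.25) and the aldehyde dehydrogenase ALDH3A1 (1.22), which convert reactive carbonyl compounds, also rose. VSNL1, a calcium sensor (1.49, SE 0.12), CAV1, the caveolar coat protein (1.24, SE 0.10), and GPAT3, which starts glycerolipid synthesis (1.11, SE 0.07), also rose.

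RNA machinery was also among the rises. GEMIN5 binds small nuclear RNAs for assembly into splicing particles and was 0.00, 0.02 and -0.15 in control against 1.04, 0.99 and 1.15 at 8 h (1.10, SE 0.07). POLR3G, a subunit of RNA polymerase III, was 0.00, 0.06 and -0.33 against 1.07, 0.86 and 1.06 (1.09, SE 0.10). PCLAF, a PCNA-binding protein of the replication fork that was on no list, was 0.98, 0.92 and 1.07 at 8 h (0.99, SE 0.06). The remaining rises among the 15 largest were SERPINB3, SLCO4A1, SH3TC2 and IGFL4, of which SERPINB3 rose most (1.08, SE 0.13). The SERPINB3 call was lost with quantile normalization (adjusted p = 0.0602). A pseudogene, NMRAL2P (1.48), and the small RNAs RNU5D-1 (1.29), SNORA74A (1.21) and SNORD30 (1.14) rose as much and were skipped by the naming rule.

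DEPTOR had the largest fall outside the lists set apart. It encodes an inhibitor of mTOR and was 0.13, 0.00 and 0.00 on the control arrays and -1.88, -2.19 and -2.17 at 8 h, a 4.34-fold fall (-2.12, SE 0.08, adjusted p = 3.49e-09). TXNIP, which restrains glucose uptake and binds thioredoxin, was 0.00, 0.01 and -0.04 in control and -1.53, -1.69 and -1.80 at 8 h (-1.66, SE 0.06). ARRDC4, its paralogue, fell by 0.86 (SE 0.11). KLHL24, a substrate adaptor for a ubiquitin ligase, fell by 1.68 (SE 0.10), TCP11L2 by 1.96 (SE 0.11) and TSC22D3, the glucocorticoid-induced leucine zipper, by 1.48 (SE 0.06). The falls in each of these genes were larger than the spread of its replicates, which for all but ARRDC4 is largely built into the choice.

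The other falls among the 15 largest held genes of several kinds. HBEGF, a ligand of the EGF receptor, was -0.02, 0.00 and 0.03 in control and -1.41, -1.49 and -1.49 at 8 h (-1.46, SE 0.06). FGF19, an endocrine growth factor, was -0.03, 0.02 and 0.00 against -1.41, -1.45 and -1.47 (-1.44, SE 0.06). Replicates of both genes agreed closely. TLR3, the receptor for double-stranded RNA, fell by 1.63 (SE 0.11), ULBP1, a ligand of the NKG2D receptor on killer cells, by 1.55 (SE 0.08), and TNFSF15, a TNF-family cytokine, by 1.53 (SE 0.06). The alcohol dehydrogenase ADH1C (-1.66), the carrier SLC16A4 (-1.51), the protease inhibitor SERPINA3 (-1.49), the superoxide-producing oxidase NOX1 (-1.48) and the trypsinogen PRSS1 (-1.48) completed the 15. PRSS1 has near-identical copies, so its value is uncertain.

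**Figure D2:**
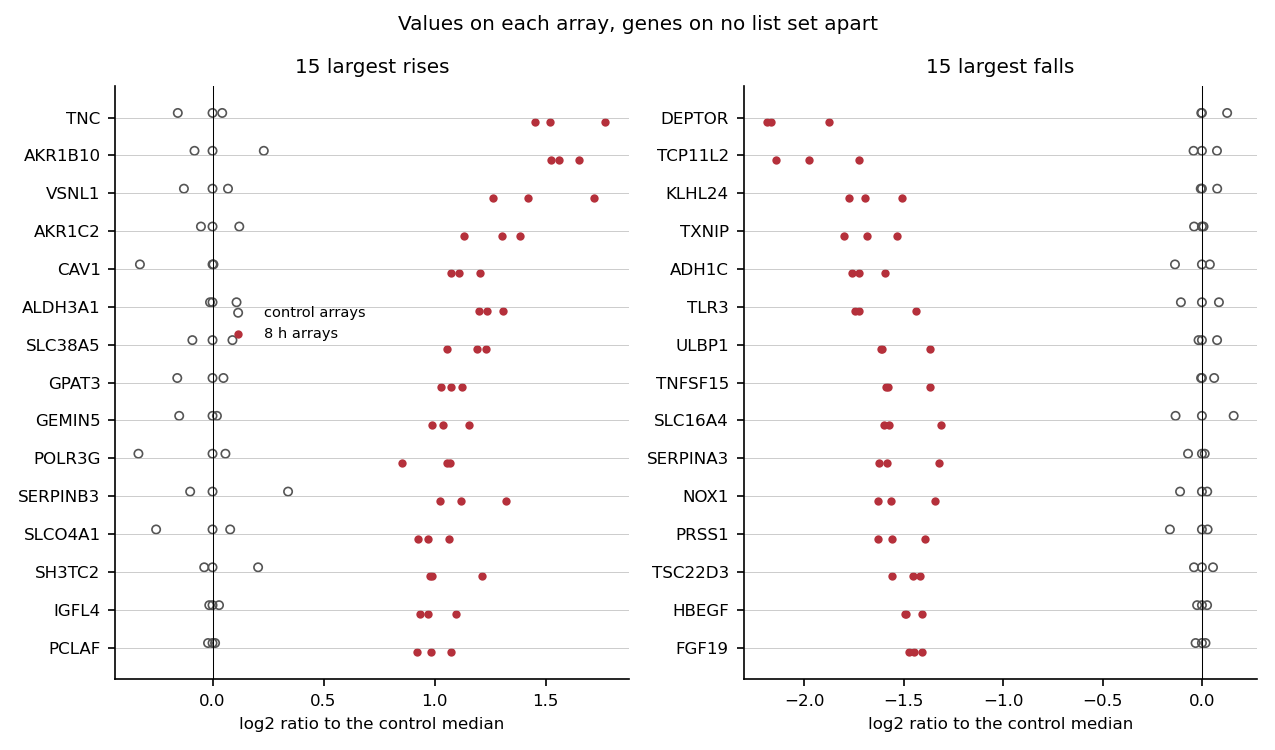
Log2 ratio to the control median (horizontal axis) of the 15 largest rises and 15 largest falls outside the lists set apart, with open circles for the 3 control arrays and filled circles for the 3 arrays at 8 h. The genes were chosen from those whose groups do not overlap. DEPTOR reaches -2.19 and TNC 1.77.

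Promoter sequences from RefSeq (GRCh38.p14, 250 bases before to 50 after the start) were matched to 14210 of the 18377 genes. They are shown for the largest rise, for the largest fall after DEPTOR (chosen because no sequence from its chromosome is printed), and for the largest change in the nuclear pore and ERK output lists, in both of which most members were called in 1 direction. TNC lies at chr9:115118108-115118407 on the minus strand, TCP11L2 at chr12:106302483-106302782, NUP188 at chr9:128947449-128947748 and EGR1 at chr5:138465229-138465528, all on the plus strand. Capitals mark matches to the motifs searched.
TNC: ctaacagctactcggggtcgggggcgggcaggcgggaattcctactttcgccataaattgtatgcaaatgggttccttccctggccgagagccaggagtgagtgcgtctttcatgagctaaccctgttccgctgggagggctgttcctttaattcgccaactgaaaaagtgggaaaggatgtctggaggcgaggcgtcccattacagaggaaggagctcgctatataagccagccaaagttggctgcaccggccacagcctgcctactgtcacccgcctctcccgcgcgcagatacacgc
TCP11L2: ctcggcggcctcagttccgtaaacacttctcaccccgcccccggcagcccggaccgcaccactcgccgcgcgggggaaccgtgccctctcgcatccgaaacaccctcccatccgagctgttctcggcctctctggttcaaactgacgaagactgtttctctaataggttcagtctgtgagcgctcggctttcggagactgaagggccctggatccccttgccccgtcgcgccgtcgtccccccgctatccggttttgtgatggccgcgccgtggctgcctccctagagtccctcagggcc
NUP188: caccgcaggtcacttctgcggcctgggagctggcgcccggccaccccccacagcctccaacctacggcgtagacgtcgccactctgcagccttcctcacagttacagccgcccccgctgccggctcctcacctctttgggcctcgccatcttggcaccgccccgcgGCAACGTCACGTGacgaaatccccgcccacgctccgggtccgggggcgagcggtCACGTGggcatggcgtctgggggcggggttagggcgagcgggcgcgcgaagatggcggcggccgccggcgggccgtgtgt
EGR1: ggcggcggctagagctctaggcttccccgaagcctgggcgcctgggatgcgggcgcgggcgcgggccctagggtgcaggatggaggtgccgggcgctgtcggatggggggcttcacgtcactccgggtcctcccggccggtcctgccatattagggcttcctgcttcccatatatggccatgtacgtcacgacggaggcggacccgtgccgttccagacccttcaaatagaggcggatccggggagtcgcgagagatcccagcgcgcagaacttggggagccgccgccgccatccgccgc
Motifs were sought on both strands: TGACTCAGC and TGACNNNGC (antioxidant response element), CACGTG (E-box, bound by MYC and related factors), TTTGGCGC and TTTCCCGC (E2F), the interferon response element (GAAA repeated, with any 2 bases between), CCGGAAGT (ETS) and GGAATG (TEAD). Of the 4 promoters only NUP188 held any: a pair of E-boxes, the first overlapping a match to TGACNNNGC on the minus strand. For the other 3, these letters are not in this window.

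Across the array, CACGTG was in 8.88% of all promoters, in 12.9% of those of genes called higher and in 9.32% of those called lower. It was in 31.2% of translation initiation and 20.6% of RNA polymerase I and III promoters, lists with more rises than falls. It was also in 21.7% of lysosome and 26.1% of clock promoters (6 of 23), lists with more falls than rises. CCGGAAGT was in 6.40% of all, 10.3% of higher and 6.38% of lower genes, and in 23.8% of splicing promoters. Its share was similar for RNA polymerase I and III (23.5%), translation initiation (21.9%) and mitochondrial import genes (21.1%). It was 14% for secretory genes, which fell more often than they rose, and 2.04% for ERK outputs. Among the lists set apart, the interferon response element was in 55.9% of 93 interferon-stimulated promoters against 3.03% of all, and TTTCCCGC in 17.9% of 78 replication promoters against 2.25%. A match is a description of letters and was not tested as a site.

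Gene groups were then read by how many measured members were called, beside the 12.1% of all genes that were higher and the 12% that were lower. All genes include families that were hardly called, such as olfactory receptors (0.836% higher, 0% lower). A list modestly above 12% may therefore not differ from other expressed genes, which was not tested. With genes of small range left out, 1959 were higher and 2045 lower. That range includes the change at 8 h, so larger shares among the genes kept follow from the choice and do not bear on this. Quantile normalization called 834 of the 18377 genes higher and 1035 lower, 1869 in all in place of 4439. With it the counts of these lists shrank as well. Members higher were then 15 nuclear pore, 15 cohesin and centromere, 13 chaperone, 11 mitochondrial ribosome, 7 splicing and 5 proteasome genes, and members lower 19 lysosome, 15 ERK output and 13 secretory genes. Genes that build and run the nucleus had the highest shares of rises outside the lists set apart, together with chaperones. Nuclear pore proteins and importins, the transport channel of the nuclear envelope and its carriers, had 37 of 55 higher and 1 lower, with a median of 0.27. NUP188, a scaffold subunit, was 0.08, 0.00 and 0.00 in control and 0.56, 0.57 and 0.51 at 8 h (0.52, SE 0.05). NUP93 (0.49, SE 0.08), NUP85 (0.46, SE 0.06) and NUP155 (0.46, SE 0.06), also scaffold subunits, rose as well. The lone fall was KPNA5, an importin alpha (-0.42), named after its value was seen. These are modest changes, under 1.5-fold in every member.

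Cohesin, condensin and centromere genes, which hold and shape chromosomes, had 28 of 48 higher and 1 lower (median 0.31). NCAPG2, of condensin II, was 0.00, 0.04 and -0.21 in control and 0.65, 0.58 and 0.59 at 8 h (0.66, SE 0.07). The centriole protein CPAP (0.65, SE 0.10) and the kinetochore-linked CENPX (0.59, SE 0.08) and CENPM (0.59, SE 0.07) rose. Pre-mRNA splicing genes had 33 of 70 higher and 1 lower (median 0.18), among them PRPF4 (0.57, SE 0.07), of the tri-snRNP, and the helicase DDX46 (0.56, SE 0.08). CLK1, a kinase of splicing factors, was the exception: 0.00, 0.03 and -0.16 in control and -0.88, -0.96 and -0.86 at 8 h (-0.85, SE 0.10).

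RNA polymerases I and III, which make ribosomal and transfer RNA, had 14 of 41 higher and 1 lower (median 0.11). POLR1A, the catalytic subunit of polymerase I, was 0.00, 0.03 and -0.10 in control and 0.55, 0.53 and 0.44 at 8 h (0.53, SE 0.06), and POLR1G rose by 0.64 (SE 0.08). Small nucleolar RNAs, which guide chemical changes on ribosomal RNA, were mostly not called. Of 115 in the C/D class 27 were higher and none lower (16 higher without 8 h replicate 3, 14 with quantile normalization). Of 61 in the H/ACA class 10 were higher and 2 lower, a share of rises near that of all genes (6 higher with quantile normalization). SNORD30 was -0.15, 0.10 and 0.00 in control and 1.16, 1.16 and 1.07 at 8 h. Many of these RNAs lie in introns of other genes and some have near copies, so their probe sets are uncertain.

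Counts of ribosomal proteins differed by compartment. Of 74 mitochondrial ribosomal proteins 34 were higher (11 with quantile normalization) and none lower (median 0.16). Of 63 cytosolic ribosomal proteins 3 were higher and 7 lower (median -0.02). MRPS25 was 0.09, 0.00 and -0.01 in control and 0.69, 0.57 and 0.47 at 8 h (0.55, SE 0.06). RPL28, of the cytosolic large subunit, was 0.00, 0.02 and -0.02 against -0.35, -0.29 and -0.28 (-0.31, SE 0.04). Among the cytosolic rises were RPL23 (0.31 to 0.49 with 1 array left out) and RPS24 (0.34 to 0.42). Both calls were lost only with quantile normalization (adjusted p = 0.0524 and 0.0789). Cytosolic ribosomal proteins have many pseudogenes that can share probes, so single members are uncertain. Translation initiation factors had 10 of 40 higher and 3 lower, with EIF2B3, of the exchange factor for eIF2, at 0.60 (SE 0.07). EIF4EBP1, an mTORC1-controlled repressor of translation, fell by 0.47 (SE 0.14, adjusted p = 0.0231). It did not pass when control replicate 2 or 3, or 8 h replicate 1 or 2, was left out (0.0527 to 0.087), or with quantile normalization (0.172).

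Genes of protein folding and degradation also rose often. Chaperonin, prefoldin and cytosolic chaperone genes had 30 of 48 higher and 2 lower (median 0.22). HSPH1, an HSP110 chaperone, was 0.04, 0.00 and -0.10 in control and 0.71, 0.69 and 0.67 at 8 h (0.71, SE 0.06). CHORDC1, an HSP90 co-chaperone, rose by 0.80 (SE 0.10) and BAG2 by 0.69 (SE 0.06), whereas HSPA13 fell by 0.73 (SE 0.09). Proteasome subunits had 19 of 45 higher and 4 lower. PSMD1, of the regulatory cap, was 0.06, 0.00 and -0.05 in control and 0.63, 0.49 and 0.51 at 8 h (0.54, SE 0.05). The 4 that fell were PSMB8, PSMB9, PSME1 and PSME2, the immunoproteasome and its activator, which interferon is known to induce; PSMB8 and PSME2 were named after their values were seen. PSMB9 was 0.00, 0.00 and -0.19 in control and -0.77, -0.86 and -0.94 at 8 h.

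**Figure D3:**
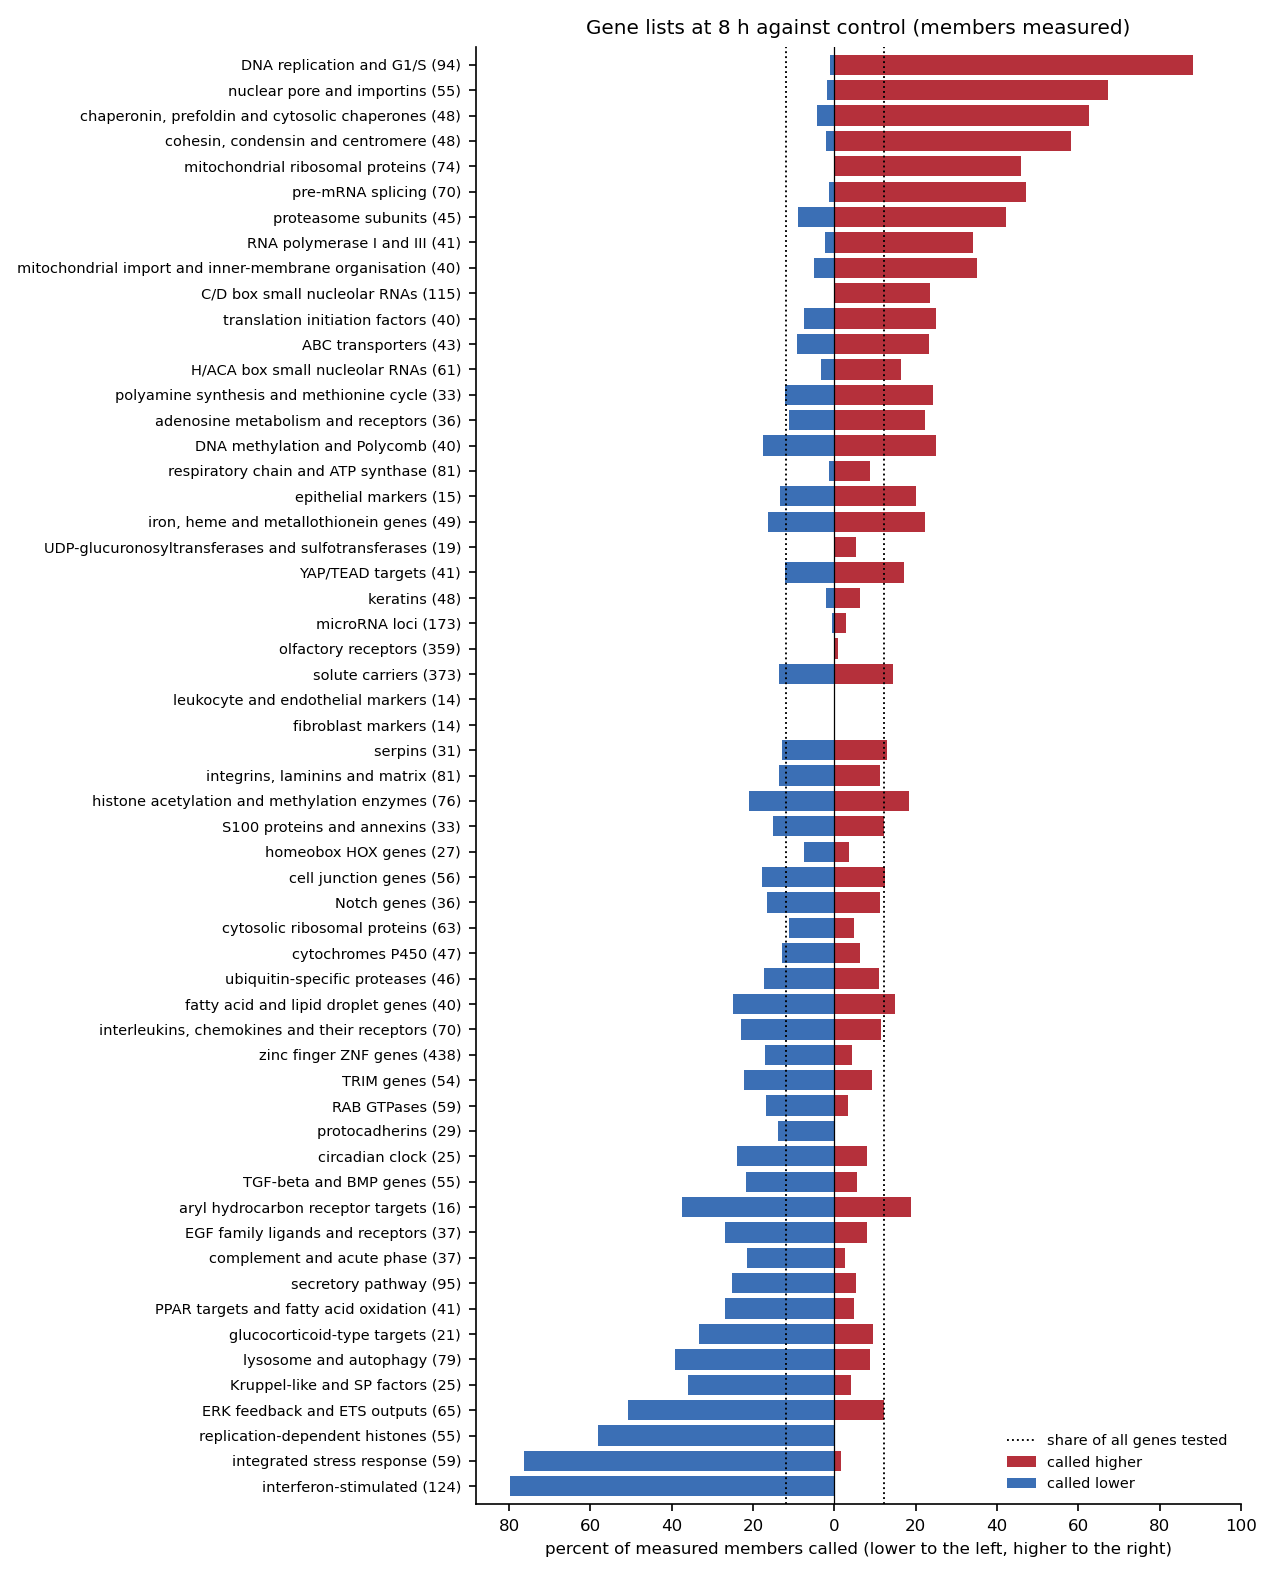
For each gene list (number of measured members in brackets), the bar to the right is the percent of members called higher at 8 h and the bar to the left the percent called lower; dotted lines mark the 12.1% and 12% of all genes. Nuclear pore genes (67.3% higher) and ERK outputs (50.8% lower) lie far from those lines, and olfactory receptors (0.836% higher) near 0.

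Metabolism was mixed. Mitochondrial import genes had 14 of 40 higher and 2 lower, and TIMM21, of the inner-membrane translocase, rose by 0.89 (SE 0.09). TOMM40, the outer-membrane channel, was 0.09, -0.05 and 0.00 in control and 0.54, 0.62 and 0.56 at 8 h (0.56, SE 0.08). Respiratory chain and ATP synthase genes had only 7 of 81 higher and 1 lower. Polyamine and methionine cycle genes had 8 of 33 higher and 4 lower. Spermidine synthase, SRM, was -0.07, 0.00 and 0.02 in control and 0.69, 0.70 and 0.67 at 8 h (0.71, SE 0.05). ODC1 (0.38, SE 0.06) and AMD1 (0.38, SE 0.06; adjusted p = 0.0522 with quantile normalization), which feed it, rose. SAT2, an acetyltransferase gene on the same list, fell by 0.57 (SE 0.09). MAT2A (0.03, adjusted p = 0.731) and AHCY (0.00, adjusted p = 0.982), which make and clear S-adenosyl compounds, were not called.

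Adenosine genes had 8 of 36 higher and 4 lower. SLC29A1, the main equilibrative nucleoside transporter, was 0.00, 0.08 and -0.03 in control and 0.93, 0.89 and 0.77 at 8 h (0.85, SE 0.06). SLC29A2 rose by 0.41 (SE 0.07), the salvage enzyme PNP by 0.53 (SE 0.05) and the adenosine receptor ADORA2B by 0.37 (SE 0.09). NT5E, which makes adenosine outside the cell, was not called (-0.11, adjusted p = 0.352) except with array weights (0.0178).

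Lipid genes moved both ways. Fatty acid and lipid droplet genes had 6 of 40 higher and 10 lower (5 lower without 8 h replicate 2, 6 without control replicate 2 or 8 h replicate 3, 3 with quantile normalization). SCD, which makes monounsaturated fatty acids, was 0.04, -0.08 and 0.00 in control and -0.94, -0.85 and -0.86 at 8 h (-0.87, SE 0.06). SREBF1, a transcription factor of lipid synthesis, fell by 0.54 (SE 0.06), whereas the elongase ELOVL6 rose by 0.44 (SE 0.08). PPAR targets and fatty acid oxidation genes had 2 of 41 higher and 11 lower, including TXNIP. PDK4, which turns pyruvate away from the citric acid cycle, was -0.59, -0.72 and -0.70 at 8 h (-0.69, SE 0.06). That count of falls was 5 without 8 h replicate 2 or 3, 6 without control replicate 2, 7 without control replicate 1 and 4 with quantile normalization.

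Iron genes moved both ways. TFRC, the transferrin receptor, was 0.00, -0.09 and 0.00 in control and 0.81, 0.79 and 0.69 at 8 h (0.80, SE 0.05). The reductase STEAP3 rose by 0.70 (SE 0.05), FLVCR2 by 0.80 (SE 0.08) and heme oxygenase HMOX1 by 0.41 (SE 0.05). The related reductase STEAP4 fell by 1.01 (SE 0.08). In all 11 of 49 iron, heme and metallothionein genes were higher and 8 lower.

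Lysosome and autophagy genes fell more often than genes at large, with 31 of 79 lower and 7 higher (median -0.08). CTSO, a lysosomal protease, was 0.00, 0.20 and -0.01 in control and -1.02, -1.28 and -1.05 at 8 h (-1.18, SE 0.11). The autophagy receptors CALCOCO2 (-0.85, SE 0.08) and OPTN (-0.77, SE 0.07) and WIPI1 (-0.83, SE 0.08), which binds forming autophagosomes, fell. SQSTM1, the best known receptor, was not called (-0.02, SE 0.06, adjusted p = 0.906). Secretory pathway genes had 24 of 95 lower and 5 higher (median -0.06). DNAJB9, a chaperone of the endoplasmic reticulum, was 0.00, 0.14 and -0.08 in control and -0.94, -1.19 and -1.23 at 8 h (-1.14, SE 0.09), and the COPII coat gene SEC24D fell by 0.90 (SE 0.09).

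**Figure D4:**
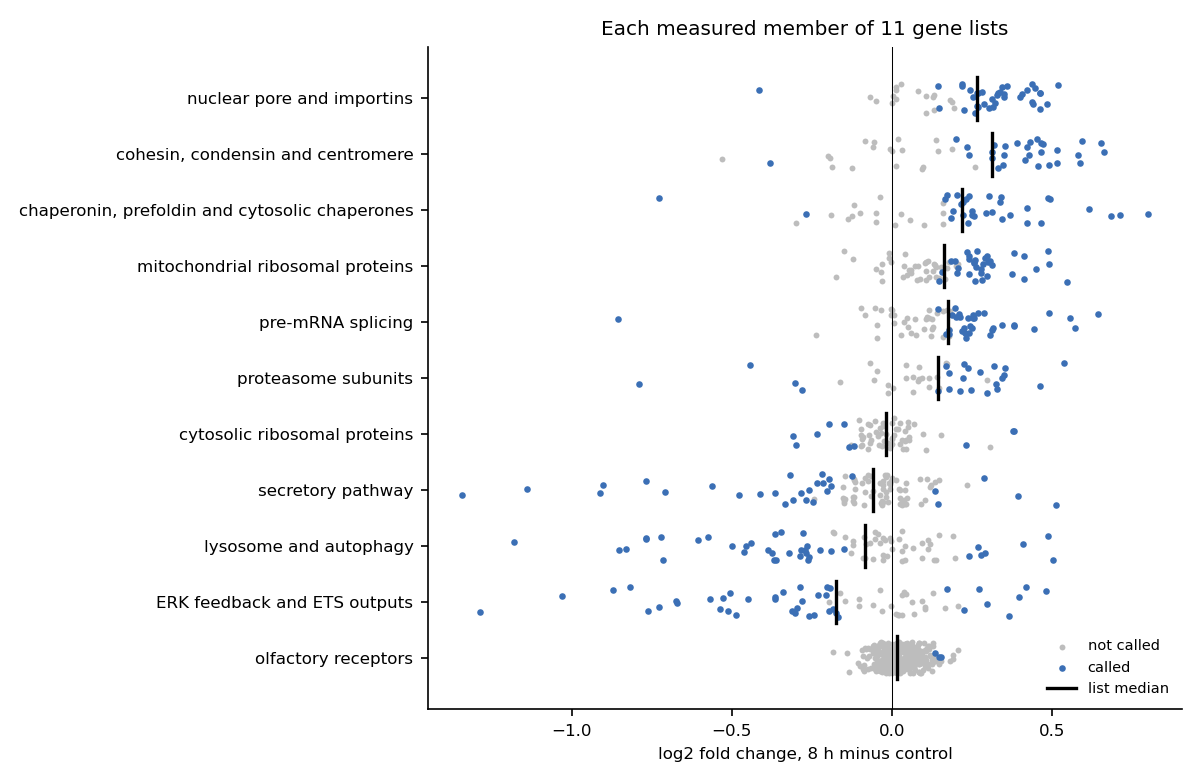
Each point is a measured member of 1 of 11 gene lists, placed by its log2 fold change, 8 h minus control (horizontal axis); blue points were called, the vertical bar is the list median, and vertical scatter within a list has no meaning. The medians run from -0.17 for ERK outputs to 0.31 for cohesin, condensin and centromere genes, and the olfactory receptors stay close to 0.

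Among signalling genes, outputs of ERK, the kinase downstream of growth factor receptors, fell most. Of 65 genes of ERK feedback and ETS factors 33 were lower and 8 higher (median -0.17). EGR1, an immediate early transcription factor, was 0.00, -0.09 and 0.13 in control and -1.32, -1.26 and -1.24 at 8 h (-1.29, SE 0.07). SPRY4, a feedback inhibitor of receptor signalling, was 0.00, 0.11 and -0.04 against -0.98, -0.98 and -1.07 (-1.03, SE 0.06). FOS fell by 0.87 (SE 0.05) and DUSP10, a kinase phosphatase, by 0.82 (SE 0.13). Some genes of this list are immediate early genes whose fall was known from earlier analysis of these data, so the count is no independent support.

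EGF and FGF family genes had 10 of 37 lower and 3 higher. Besides HBEGF and FGF19, the receptor ubiquitin ligase CBLB was 0.00, 0.05 and -0.06 in control and -1.06, -1.03 and -1.09 at 8 h (-1.05, SE 0.07), and the receptor FGFR2 fell by 0.65 (SE 0.08). EREG, another EGF receptor ligand, was not called (0.01, adjusted p = 0.949). EGFR itself was at 0.21 (SE 0.08, adjusted p = 0.0849) and passed in 3 alternatives (0.0395 to 0.0478).

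Other signalling lists held fewer calls. TGF-beta and BMP genes had 12 of 55 lower and 3 higher (6 lower without control replicate 2 or 8 h replicate 3), with ID2, an inhibitor of differentiation, at -0.75, -0.64 and -0.68 at 8 h (-0.70, SE 0.07) and the cell cycle inhibitor CDKN2B at -0.63 (SE 0.07). Of 41 genes on the YAP/TEAD target list 7 were higher and 5 lower. AXL (0.53, SE 0.06) and TEAD4 (0.57, SE 0.06), itself a TEAD factor, rose, while the endothelin gene EDN1 fell by 0.82 (SE 0.08). ANKRD1 fell most (-1.10 to -0.86 with 1 array left out), a call lost with quantile normalization (adjusted p = 0.339). Notch genes had 4 of 36 higher and 6 lower, with the target HES1 at -0.55 (SE 0.06). Clock genes had 2 of 25 higher and 6 lower, and of the 24 on no list set apart 1 was higher and 6 lower. The largest fall on this list was TSC22D3 (-1.48), which is also on the list of glucocorticoid-type targets. NR1D2 was at -0.56 (SE 0.10) and BHLHE40 at -0.52 (SE 0.08). PER1 (-0.05, adjusted p = 0.629) and PER2 (-0.12, adjusted p = 0.215) were not called, PER2 passing only with array weights (0.0369).

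Targets of the aryl hydrocarbon receptor, which senses aromatic compounds, had 3 of 16 higher and 6 lower. CYP1A1, its classic target, was 0.00, 0.00 and 0.05 in control and 0.54, 0.54 and 0.38 at 8 h (0.47, SE 0.07). Of 21 glucocorticoid-type targets 7 were lower and 2 higher, led by TSC22D3. Among 70 interleukins, chemokines and receptors 16 were lower and 8 higher. With quantile normalization 3 were lower and 5 higher, so the lean to falls was not kept. Beside 834 higher and 1035 lower of all 18377 genes in that setting, so few calls give no lean to rises either. IL17RB, a receptor for IL-25, rose by 0.93 (SE 0.11) and IL20RB fell by 0.59 (SE 0.05). Complement and acute phase genes had 8 of 37 lower and 1 higher, with complement factor CFB at -0.86, -1.02 and -1.02 at 8 h (-0.99, SE 0.09).

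Structural genes were near the background in number. Integrins, laminins and matrix genes had 9 of 81 higher and 11 lower (6 lower without control replicate 2 and 7 without 8 h replicate 3). CAVIN1, which builds caveolae with CAV1, was 0.11, 0.00 and -0.02 in control and 1.07, 1.07 and 0.92 at 8 h (0.99, SE 0.05). Junction genes had 7 of 56 higher and 10 lower. CLDN2, a pore-forming claudin, was 0.00, 0.09 and -0.11 in control and 0.80, 0.76 and 0.59 at 8 h (0.72, SE 0.06), and TJP3, a tight junction scaffold, fell by 0.45 (SE 0.07).

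Chromatin genes moved both ways. DNMT1, the maintenance DNA methyltransferase, was 0.16, -0.01 and 0.00 in control and 0.65, 0.54 and 0.58 at 8 h (0.54, SE 0.06). Its partner UHRF1 rose by 0.26 (SE 0.05), and TET2, which oxidizes methylcytosine, fell by 0.41 (SE 0.06). EZH2, the Polycomb methyltransferase, rose by 0.32 (SE 0.08), a call lost without 8 h replicate 1 (adjusted p = 0.0545) and with quantile normalization (0.136). DNA methylation and Polycomb genes had 10 of 40 higher (5 without 8 h replicate 1) and 7 lower. Of 76 histone-modifying enzymes 14 were higher and 16 lower. SUV39H1, which methylates histone H3 in heterochromatin, was 0.01, 0.00 and -0.16 in control and 0.63, 0.67 and 0.53 at 8 h (0.66, SE 0.06). The demethylases KDM5B (-0.71, SE 0.07) and KDM7A (-0.71, SE 0.11) and the deacetylase HDAC5 (-0.59, SE 0.06) fell.

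Large families gave a scale for these shares. Olfactory receptors, which colon cells are not known for expressing, had 3 of 359 higher and none lower, with changes of 0.13 to 0.15, and all 3 calls were lost in several alternatives. Solute carriers had 54 of 373 higher and 51 lower, so transport genes were called about as often as genes at large. SLC38A11 fell by 1.29 (SE 0.07) and the glycine carrier SLC6A9 by 1.09 (SE 0.07). Zinc finger ZNF genes had 19 of 438 higher and 75 lower, with 47 lower without control replicate 2, 48 without 8 h replicate 3 and 146 with array weights; the rises numbered 30 with array weights or without 48 h replicate 3. Kruppel-like and SP factors had 9 of 25 lower (2 with quantile normalization) and 1 higher, among the falls KLF6 (-0.54, SE 0.06) and KLF10 (-0.53, SE 0.05).

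Of 43 ABC transporters 10 were higher and 4 lower. ABCG2, an efflux pump for which methotrexate is a known substrate, was 0.12, 0.00 and -0.16 in control and 0.90, 0.69 and 0.69 at 8 h (0.78, SE 0.08). The cholesterol exporters ABCG1 (-0.90, SE 0.08) and ABCA1 (-0.58, SE 0.06) fell. Cytochromes P450 had 3 of 47 higher and 6 lower; CYP2B6 was -0.04, 0.00 and 0.02 against -1.15, -1.16 and -1.19 (-1.16, SE 0.04). TRIM genes had 12 of 54 lower and 5 higher, led by the interferon-inducible TRIM22 (-1.16, SE 0.08); of the 49 on no list set apart 7 were lower, near the share of all genes, and RAB GTPases 10 of 59 lower and 2 higher, led by RAB30 (-0.89, SE 0.10). Of 48 keratins 3 were higher and 1 lower, with KRT13 at 0.81, 0.84 and 0.78 at 8 h (0.86, SE 0.06). Serpins had 4 of 31 higher and 4 lower.

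MicroRNA loci were rarely called, 5 of 173 higher and 1 lower. The array probes the transcript of the locus and not the mature microRNA, whose sequence is shown, from RefSeq (GRCh38.p14), for the 4 loci with the largest called changes, with the seed (bases 2 to 8) in capitals.
hsa-miR-25-3p: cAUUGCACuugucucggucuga
hsa-miR-93-5p: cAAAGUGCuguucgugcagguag
hsa-miR-221-3p: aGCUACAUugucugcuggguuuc
hsa-miR-31-5p: aGGCAAGAugcuggcauagcu
The 4 seeds differ. MIR25 was 0.00, -0.19 and 0.14 in control and 0.42, 0.63 and 0.80 at 8 h (0.63, SE 0.12), and MIR93 0.04, 0.00 and 0.00 against 0.41, 0.60 and 0.45 (0.48, SE 0.06). Both lie in an intron of MCM7, a replicative helicase gene that also rose (0.32), and signals of host and locus cannot be told apart by such probes. MIR221 rose by 0.43 (SE 0.09). MIR31 rose by 0.27 (SE 0.07), a call lost without control replicate 1 or 3 or 8 h replicate 3 (0.0574 to 0.0778) and with quantile normalization (0.458).

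The 8 largest rises and 8 largest falls were followed to 24 and 48 h. Background shares were 19.4% of genes called between 24 and 8 h and 29.7% between 48 and 8 h. The genes were chosen by their values at 8 h, which also enter these differences, so the tests are not independent of the choice. SLC38A5 returned to 0.02, -0.02 and 0.01 at 24 h (24 h minus 8 h -1.16, adjusted p = 3.66e-07). AKR1B10 went to 0.18, 0.24 and 0.26 at 24 h and to between -1.02 and -0.74 at 48 h, below control (-0.97, adjusted p = 3.39e-06). CAV1 went the other way, to 2.29, 2.30 and 1.98 at 48 h (48 h minus 8 h 1.06, adjusted p = 4.11e-06), although this difference was lost with quantile normalization (0.662).

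Among the falls, TCP11L2 was -0.50, -0.28 and -0.46 at 24 h, well above its values at 8 h (difference 1.53, adjusted p = 2.67e-06). KLHL24 and TNFSF15 were also nearer to control at both later times. DEPTOR stayed at -1.62, -1.68 and -1.55 at 24 h and -2.08, -2.15 and -2.01 at 48 h. ADH1C was -1.69, -1.58 and -1.74 at 24 h and -1.68, -1.77 and -1.80 at 48 h, and its difference from 8 h was not called at either time (0.02 and -0.06). VSNL1 likewise showed no called difference from 8 h (0.02 and -0.10), but with quantile normalization its 48 h difference passed (-0.43, adjusted p = 0.0418).

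**Figure D5:**
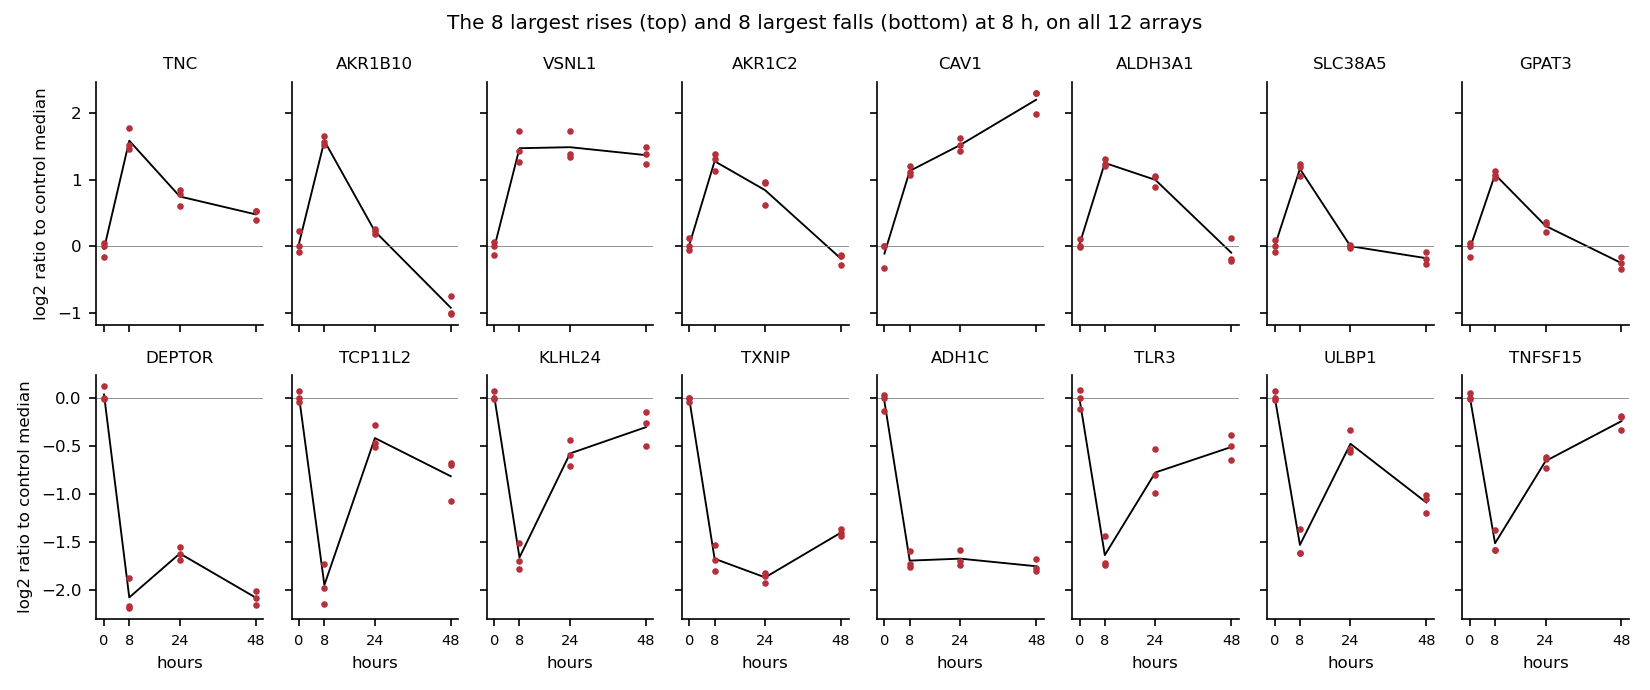
Log2 ratio to the control median (vertical axis) against hours (horizontal axis) on all 12 arrays for the 8 largest rises (top) and 8 largest falls (bottom); points are arrays and lines join group means. CAV1 climbs to 2.30 at 48 h and AKR1B10 drops below 0, while DEPTOR, TXNIP and ADH1C stay at -1.36 or lower on every treated array.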

How the data were processed

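Gene expression was measured on Affymetrix HuGene 1.0 ST arrays, 12 in 4 groups of 3, with group and replicate taken from the sample titles. The deposited log2 values were made by the authors with RMA on the hg19 annotation, per the submitters' processing notes. Every one of the 28869 probe sets had a control median of exactly 0, so the values are ratios to control. How they were centred is not given in the sources used, and base 2 was taken from RMA. Each probe set came with 1 gene (19310), several (1752) or none (7807). For the 685 of 18377 genes with several single-gene probe sets these were averaged. All 12 arrays entered 1 limma fit (limma 3.58.1, R 4.3.3) with a mean per group and eBayes (8 residual and 4.71 prior degrees of freedom). A gene was called when its two-sided p, adjusted by Benjamini-Hochberg over all genes, was under 0.05, and errors are moderated standard errors. The number of arrays limits the precision.

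The gene lists, the members named and the tests were chosen with earlier results of these data known, so lists are described by counts and medians, with no test. The text names the 15 largest rises and falls among called genes whose groups do not overlap and that are on none of the 4 lists set apart, skipping pseudogenes and small RNAs. It also names up to 4 called members of a list, or the 2 with the smallest p, and a short list of genes whatever their p. Some list examples are left out for length, and 1 list is not reported here. The fit was tested on simulated data. Alternatives were a replicate block, 2 groups only, array weights, array centring, quantile normalization, a robust prior, genes of small range left out, probe sets on their own, stricter thresholds, each array left out and, added after the data were seen, the 48 h group left out. Sequences and figures were made with Python 3.11.15, pandas 2.3.3, numpy 2.4.6 and matplotlib 3.10.9.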

Additional observations from a re-analysis of the deposited data

Results flagged for a closer look

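For the genes followed in time, the change from control at 24 or 48 h differed from that at 8 h by limma's test of the difference itself, and the values below are the later time minus 8 h on the log2 scale. TNC differed by -0.83 at 24 h and -1.10 at 48 h, AKR1B10 by -1.35 and -2.49, and AKR1C2 by -0.43 and -1.46. ALDH3A1 differed by -0.25 and -1.34, SLC38A5 by -1.16 and -1.34, and GPAT3 by -0.77 and -1.32. CAV1 differed by 0.39 and 1.06, both lost with quantile normalization (adjusted p = 0.951 and 0.662). The falls became smaller in TCP11L2 (1.53 and 1.14), KLHL24 (1.08 and 1.36), TLR3 (0.86 and 1.13), ULBP1 (1.06 and 0.44) and TNFSF15 (0.86 and 1.27). Each was still called below control at 48 h. In the same order, 48 h minus control was -0.82, -0.32, -0.50, -1.11 and -0.26. TCP11L2 and ULBP1 had been nearer to control at 24 h (-0.43 and -0.49). DEPTOR differed at 24 h (0.46, adjusted p = 0.0932 with quantile normalization), while its value at 48 h was -0.00. TXNIP was lower at 24 h (-0.19) and higher at 48 h (0.27, adjusted p = 0.173 with quantile normalization). The 24 h values of ALDH3A1 (adjusted p = 0.0492) and TXNIP (adjusted p = 0.0447) were lost in 11 and 13 alternatives, with adjusted p 0.0514 to 0.173 and 0.0513 to 0.176. The CAV1 value at 24 h was also lost without 8 h replicate 3 or 24 h replicate 2 (0.0589 to 0.0606).

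Probe sets that name several genes or none entered no comparison of genes. Of 9559 tested, 487 were called at 8 h (5.09%), 267 higher and 220 lower.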

How the results depend on the processing

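Whether the replicate numbers pair the arrays is not settled. Same-numbered control and 8 h arrays correlated at 0.409, -0.197 and 0.344 in their deviations. Of 3 controls 1 correlated best with its own number, and 3 arrays a group are too few to decide. With the replicate block 2338 genes were higher and 2380 lower, 4718 in all. Array weights called 3378 lower, and 734 of the probe sets with several genes or none. Quantile normalization called 834 higher and 1035 lower, 1869 in all, and 239 of those probe sets; by construction it gives all arrays 1 distribution, although control ratios are narrower than treated ones. Array weights also raised list counts by over 1.5 times in secretory (37 lower), PPAR (18 lower), junction (17 lower), matrix (17 higher) and histone enzyme genes (25 lower). An adjusted p under 0.01 called 1416 higher and 2920 in all. At least a 1.5-fold change left 219 higher and 379 lower, 598 in all, of which 36.6% were higher against 50.1%. With each array centred 45.1% were higher. Leaving out 1 array gave 1673 to 2598 higher and 1648 to 2563 lower, with 42.8% to 53.5% higher, and 319 (without control replicate 2) to 579 (without 48 h replicate 3) of those probe sets. Of 248 named genes, 44 lost the call at 8 h with quantile normalization and 11 under another setting at the same threshold, 6 gained one, and 0 reversed. Signal over background is unknown, so depth cannot be judged.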

Other observations

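Smaller families gave few calls. Of 29 protocadherins 4 were lower and none higher: PCDHB14 fell by 0.49 (SE 0.07), PCDHB15 by 0.21 (SE 0.05) and PCDHB11 by 0.19 (SE 0.05). Quantile normalization ended the calls of PCDHB15 (adjusted p = 0.185) and PCDHB11 (0.0806). The PCDHB16 call (-0.21) was lost in 12 alternatives besides quantile normalization (adjusted p 0.051 to 0.216). These genes are near copies, so single members are uncertain. S100 proteins and annexins, which bind calcium, had 4 of 33 higher and 5 lower. ANXA9 was 0.00, 0.01 and -0.01 in control and between -1.08 and -0.98 at 8 h (-1.02, SE 0.06), while S100A16 rose by 0.51 (SE 0.07). Ubiquitin-specific proteases had 5 of 46 higher and 8 lower (5 lower without control replicate 2 or 8 h replicate 2), led by USP18, which removes the interferon-induced modifier ISG15 (-1.15, SE 0.09). Of 27 HOX genes 1 was higher and 2 lower, with HOXB8 at -0.41 (SE 0.09). Among 19 UDP-glucuronosyltransferases and sulfotransferases SULT2B1 was the lone call (0.61, SE 0.08).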
